A study of Caenorhabditis elegans with 68 samples.

Results

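The genes described here are regulators of the osmotic stress response of the nematode Caenorhabditis elegans. From the 30467 genes of the table, 8 were chosen by name and found, and 7 are reported: osm-7, osm-8, osm-11, osr-1, ptr-23, wnk-1 and clh-3. Their levels are given in RNA sequencing libraries of hatched larvae of the first stage (L1), as TPM, a share of a library's transcripts that is corrected for gene length.

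In C. elegans, salt above the usual level draws water out of the animal, and the worm answers by accumulating glycerol. Mutations in osm-7, osm-8, osm-11 or osr-1 switch this response on without salt, so their products are known as brakes on it. OSM-7 and OSM-11 are secreted relatives of Notch ligands. OSM-8 is a secreted mucin-like protein, and PTR-23, a membrane protein related to the Hedgehog receptor Patched, is needed for the osm-8 mutant state. OSR-1 acts upstream of a CaMKII and p38 kinase route. WNK-1 belongs to the WNK kinases, which answer to water loss and control ion transport, and CLH-3 is a chloride channel of the CLC family that responds to cell volume.

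The larvae came from mothers kept at 300 or at 50 mM NaCl and were collected unstarved, as whole animals. The 48 libraries used here make up 14 groups in 4 experiments, called sets after their titles. Set D held mir-85(n4117) (strain MT12999), with the n4117 allele of the microRNA gene mir-85, and the wild type, WT (strain N2), with 2 libraries per group. Set E held larvae of strain MHE324, whose n4117 chromosome is balanced by mIn1 [mIs14 dpy-10(e128)], with 3 libraries per group. F1KO larvae were homozygous for n4117, and F1het larvae carried n4117 and the balancer with its dpy-10(e128) allele. Per the labels, the mothers of both were heterozygous. Set F held mir-85(gcp109) (MHE339), a deletion of the 3p strand of mir-85, alone, with 4 libraries per group. Set G held hrg-1(gcp100) (MHE310), in which a seed site for mir-85 in hrg-1 was mutated, and the wild type N2, with 5 libraries per group. None of the 7 genes was itself mutated in any strain. Replicates are biological ones per the labels, which name no separate cultures, and each p-value therefore reflects no more than the spread among the libraries at hand.

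Of the 20 libraries of set G, 5 stood apart from the rest, all at 300 mM. Replicate 3 of N2 and replicate 1 of gcp100 held 4740 and 1502 TPM of sperm genes (35 msp genes summed), and 8478 and 10288 TPM of adult markers (vit-1 to vit-6 and col-19 summed). These transcripts do not belong to L1 larvae, and in set F at 300 mM the sums were between 4.58 and 109 TPM for sperm and 1.91 and 176 TPM for adults. Both upper values were those of replicate 1 of gcp109, so set F was not free of such transcripts. In gcp109 at 50 mM the sums were 2.34 to 5.0 TPM for sperm and 1.51 to 2.02 TPM for adults. Replicate 1 of N2 at 300 mM held 234 TPM of sperm genes, above the range of set F at 300 mM, and was not among the 5. Replicate 5 of gcp100 held 3820 TPM of adult markers. That library, replicate 3 of gcp100 and replicate 5 of N2 had 11657, 10487 and 12078 genes at 1 TPM or more, against between 13648 and 14983 in set F at 300 mM. In all libraries of set G the values had been deposited beside displaced gene names and were moved back, which touched all 7 genes. The L1 tissues were all represented: no marker of intestine, body wall muscle, pharynx or excretory cell was at 0 in a whole group, and of the hypodermal markers only rol-6 was, in 2 groups.

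The 7 genes lie apart from one another, on 5 chromosomes (WBcel235, Ensembl release 115). osm-7 (WBGene00003887) lies on III at 13576182 to 13580662 on the plus strand, and osm-11 (WBGene00003891) on X at 17420211 to 17421582 on the minus strand. osm-8 (WBGene00003888) lies on II at 7604196 to 7605406 on the minus strand, inside the span of npp-21, a nuclear pore gene on the opposite strand with a median of 21.98 TPM. osr-1 (WBGene00016329), on I at 5200259 to 5203504 on the minus strand, overlaps the end of pde-5, which runs the other way with a median of 4.23 TPM. The use of strand in counting is not given in the sources used here, so the low values of osm-8 and osr-1 are uncertain. ptr-23 (WBGene00004237) lies on I at 14906792 to 14913083 (plus), wnk-1 (WBGene00006941) on IV at 9200103 to 9212242 (plus) and clh-3 (WBGene00000530) on II at 7217943 to 7225914 (minus). For wnk-1, with 22 annotated transcripts, and clh-3, with 12, the values are sums over the gene and do not separate isoforms.

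The 7 genes spanned the range from among the most abundant transcripts of the larva to near nothing. osm-11 was the highest, with a median of 247 TPM and a range of 78.2 to 473 TPM over the 48 libraries; 98.4% of all genes had a lower median. The kinase gene wnk-1 came next, with a median of 94.1 TPM (60.6 to 131). ptr-23 had a median of 47.0 TPM (22.8 to 128), osm-7 23.7 TPM (5.85 to 36.6) and clh-3 13.4 TPM (7.47 to 24.9). The secreted relatives OSM-11 and OSM-7 were thus encoded by transcripts of very unequal level, and the channel gene was below the kinase gene. osr-1, with a median of 0.190 TPM, and osm-8, with 0.015 TPM, were near the bottom, listed at 0 in 5 and in 24 libraries and reaching 1 TPM in 2 and in 1.

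The order held within libraries as well. osm-11 exceeded wnk-1 in 47 of 48 libraries, the exception being replicate 5 of N2 at 300 mM with 78.2 against 80.5 TPM. ptr-23 exceeded osm-7 and clh-3 exceeded osr-1 in all 48, and osm-7 exceeded clh-3 in 43. wnk-1 exceeded ptr-23 in 37 libraries, among them every library of sets D, F and G, while ptr-23 was the higher in 11 of the 12 of set E. In F1KO larvae that reversed order held without overlap at both salt levels, ptr-23 at 70.7 to 81.9 TPM against wnk-1 at 60.8 to 68.7 TPM after 300 mM and 75.6 to 94.2 against 60.6 to 74.6 TPM after 50 mM, and in F1het larvae the ranges overlapped. Within groups wnk-1 varied least, with a median coefficient of variation of 8.51%, against 17.9% for osm-11. The widest relative spread among the 5 abundant genes was that of clh-3 in n4117 at 300 mM, with 7.47 and 24.9 TPM in its 2 libraries.

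**Figure D1:**
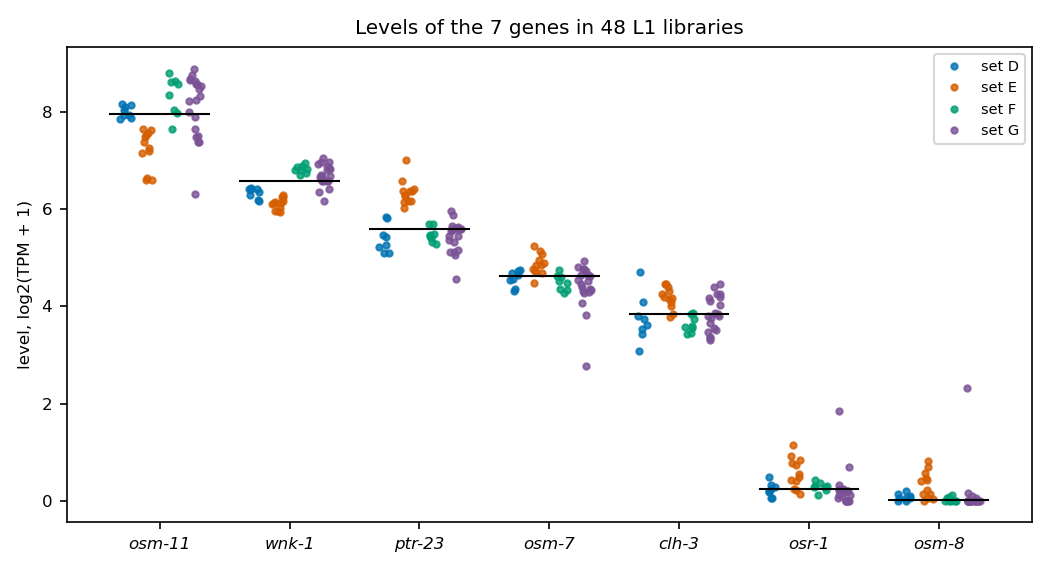
Level of each of the 7 genes, as log2(TPM + 1), in the 48 L1 libraries; each point is 1 library, colours mark the set and black bars the median. osm-11 is highest (median 247 TPM), osr-1 and osm-8 lie close to 0 except in single libraries, and the set E points of ptr-23 lie above those of the other sets.

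Whether maternal salt altered these transcripts in the larvae was compared in each of 7 pairs of groups, a genotype within a set. They are called strains below for short, but WT and N2 are the same strain, and F1KO and F1het both come from the balanced strain. The 5 genes that passed the filter on low values (1 TPM or more in a number of libraries equal to the smallest group) were compared with limma on log2(TPM + 1), and p-values were adjusted over all genes tested. None of the 5 passed an adjusted p of 0.05 in any strain. Among all genes, 0.0468% passed in n4117, 0% in WT, 0.0259% in F1KO, 0.00647% in F1het, 1.35% in gcp109, 0.622% in gcp100 and 4.3% in N2, so a count of 0 among 5 genes is near the background. In WT, where no gene passed, 1394 genes had an unadjusted p under 0.05. Of the 5 genes only osm-11 had an unadjusted p under 0.05, and it did so in 3 strains: gcp109, gcp100 and N2. The median log2 difference of the 5 genes was 0.21 in n4117, 0.22 in WT, -0.07 in F1KO, -0.20 in F1het, -0.06 in gcp109, -0.32 in gcp100 and -0.24 in N2. The medians over all genes were 0.16, 0.09, 0.03, -0.03, -0.02, -0.15 and -0.16 in the same strains.

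Ranges of single libraries were compared as well. Without overlap between the salt levels, 1 of the 5 genes was lower and 1 was higher at 300 mM in n4117 (11.5% and 33.9% of all genes), and 1 was lower and 3 were higher in WT (13.6% and 27.7%). In F1KO none was lower and 1 was higher (8.43% and 11.5% of all genes), and in F1het 1 was lower and none higher (7.93% and 6.05%). In gcp109 1 was lower and none higher (4.18% and 5.28%). In set G none of the 5 stood apart in either direction, against 2.52% lower and 2.08% higher among all genes in gcp100 and 4.87% and 4.96% in N2. The lower one was osm-11 in n4117, WT and gcp109.

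osm-11, the Notch co-ligand gene, was the member with the largest difference. Its mean was lower after 300 mM than after 50 mM in all 7 pairs, of which WT and N2 are the same strain. In gcp109 it stood at 251, 261, 200 and 323 TPM at 300 mM, against 398, 443, 391 and 379 TPM at 50 mM. The groups did not overlap, every 300 mM library being the lower. Of all genes in gcp109, 4.18% were lower without overlap. The means were 259 ± 50.8 TPM at 300 mM and 403 ± 28.2 TPM at 50 mM (SD, n = 4 each), a log2 difference of -0.66 (SE 0.15, 95% interval -0.99 to -0.32), or 0.635-fold on the log2(TPM + 1) scale. The limma p was 0.00188, with an adjusted p of 0.0810. Libraries with the same replicate number deviated together in this set, and with the replicate number as a block the same difference passed, with an adjusted p of 0.0209 by limma, in a fit where 12.5% of all genes passed against 1.35% without the block. It also passed without replicate 4 at 300 mM, the highest of its group, with a log2 difference of -0.77 and an adjusted p of 0.0406 by limma (1.18% of all genes passed there). Replicate 1 at 300 mM held 109 TPM of sperm genes and 176 TPM of adult markers. Without that library the log2 difference was -0.65, with an adjusted p of 0.207 by limma.

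In N2 of set G, osm-11 stood at 179, 177, 321, 253 and 78.2 TPM at 300 mM, against 399, 370, 396, 410 and 302 TPM at 50 mM. Only replicate 3 at 300 mM, one of the libraries that stood apart, reached into the 50 mM range. The log2 difference was -1.03 (SE 0.30, 95% interval -1.65 to -0.41), 0.490-fold, with an adjusted p of 0.0546 by limma. Left out together, an alternative chosen after seeing the data, the 5 libraries that stood apart gave a smaller difference of -0.89 (SE 0.17) with an adjusted p of 0.00749 by limma, in a fit where 7.27% of all genes passed against 4.3% with all libraries. The 3 remaining 300 mM libraries, between 177 and 253 TPM, then all lay below the 50 mM group. They were not free of sperm transcripts. Replicates 1, 2 and 4 held 234, 25.9 and 32.3 TPM of them, against 4.6 to 8.18 TPM in N2 at 50 mM. With all other libraries kept, the size of the osm-11 difference rested in part on replicate 5 at 300 mM: without it the log2 difference was -0.73. That library held 432 TPM of sperm genes and 186 TPM of adult markers.

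In gcp100, the other strain of set G, osm-11 stood at 433, 166, 199, 234.99 and 166 TPM at 300 mM, against 473, 297, 378, 352 and 379 TPM at 50 mM. Replicate 1 at 300 mM, the library with the highest adult marker sum, lay in the 50 mM range, and the other 4 lay below it. The log2 difference was -0.73 (SE 0.30, 95% interval -1.35 to -0.11), with an adjusted p of 0.310 by limma. Without the 5 libraries it was -0.91 (SE 0.20), with an adjusted p of 0.0725 by limma. The responses of gcp100 and N2 differed by 0.30 on the log2 scale (95% interval -0.58 to 1.18), so the interval leaves room for a difference in either direction.

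In sets D and E the differences of osm-11 were smaller. In set D it stood at 243 and 243 TPM at 300 mM against 287 and 262 TPM at 50 mM in n4117, and at 230 and 232 TPM at 300 mM against 274 and 283 TPM at 50 mM in WT. Both strains were lower without overlap, as were 11.5% of all genes in n4117 and 13.6% in WT, which is what 2 libraries against 2 readily give. The log2 differences were -0.17 in n4117 (95% interval -0.56 to 0.22) and -0.27 in WT (-0.66 to 0.12). With the libraries rescaled both were -0.37, with adjusted p of 0.444 in n4117 and 0.479 in WT by limma. In set E the groups overlapped: F1KO larvae had 98.9, 166 and 178 TPM at 300 mM against 96.0, 189 and 198 TPM at 50 mM, and F1het larvae 152, 182 and 96.2 TPM at 300 mM against 146, 142 and 196 TPM at 50 mM. The log2 differences there were -0.10 (-0.82 to 0.62) and -0.20 (-0.92 to 0.52), and leaving out single libraries turned the sign of each.

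**Figure D2:**
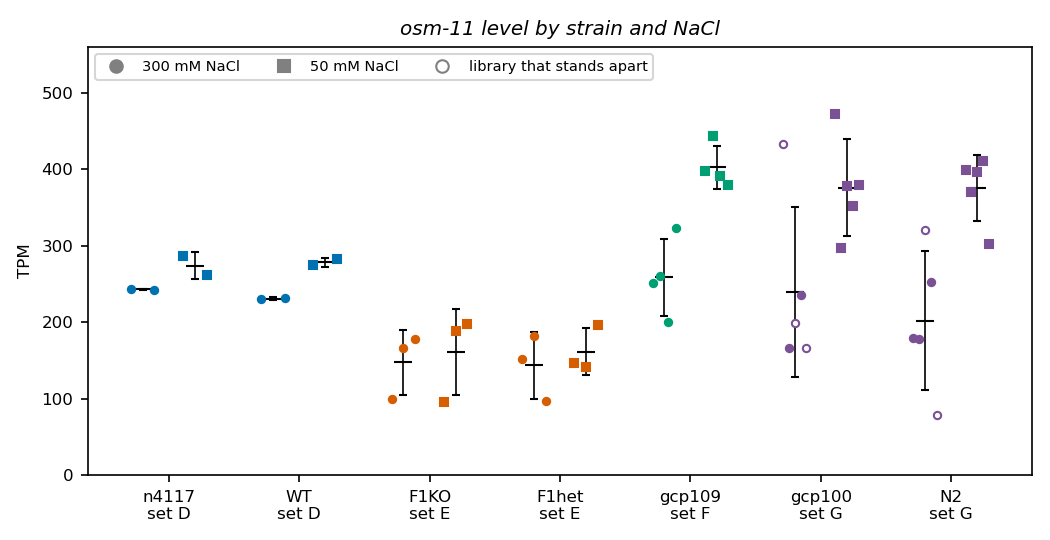
Level of osm-11 in TPM in each library, by strain and set, with 300 mM NaCl (circles) left of 50 mM (squares); black bars are the mean and SD of a group, and open symbols are the 5 set G libraries that stand apart. The 4 libraries of gcp109 at 300 mM (200 to 323 TPM) lie below those at 50 mM (379 to 443 TPM), and in set G single libraries at 300 mM, 433 TPM in gcp100 and 321 TPM in N2, reach the 50 mM range.

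Larvae were extracted whole, so fewer cells that express a gene and less of its RNA per cell cannot be told apart. Marker sums moved beside the osm-11 values in gcp109: 5 hypodermal markers summed to between 1011 and 1197 TPM at 300 mM and between 539 and 833 TPM at 50 mM, with none at 0. In N2 the same sum was 316 to 1131 TPM at 300 mM and 366 to 961 TPM at 50 mM, and overlapped. The part of cell composition or stage in the osm-11 difference was not tested.

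osm-7, the other Notch-related brake, did not share the pattern. Its log2 differences at 300 against 50 mM were 0.21 in n4117, 0.22 in WT, 0.33 in F1KO, 0.07 in F1het, 0.07 in gcp109, -0.51 in gcp100 and 0.06 in N2, with adjusted p between 0.441 and 0.917 by limma. In gcp109 it stood at 23.8, 21.2, 18.2 and 25.7 TPM at 300 mM, against 23.2, 21.99, 19.6 and 19.3 TPM at 50 mM, and the groups overlapped. The interval there, -0.23 to 0.37, leaves out a difference as far below 0 as that estimated for osm-11. In F1KO larvae it stood at 28.7, 30.0 and 34.4 TPM at 300 mM against 21.2, 24.7 and 27.8 TPM at 50 mM, without overlap, as were 11.5% of all genes in that direction. The lowest values of osm-7 in the series, 5.85 and 13.2 TPM, were those of replicates 5 and 3 of gcp100 at 300 mM, which had the fewest genes at 1 TPM or more. The log2 difference in gcp100 ranged from -0.67 to -0.20 when single libraries were left out.

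ptr-23, the Patched-related gene, showed log2 differences between -0.34 and 0.32 over the 7 strains, with a smallest adjusted p of 0.283, in N2. In gcp109 it stood at 39.0, 37.8, 44.0 and 50.4 TPM at 300 mM, against 42.7, 43.2, 50.7 and 41.3 TPM at 50 mM, and the groups overlapped. In N2 the 300 mM libraries lay between 22.8 and 47.3 TPM and the 50 mM libraries between 39.1 and 61.4 TPM. The lowest of these, 22.8 TPM, came from replicate 3 at 300 mM, the library rich in sperm and adult transcripts.

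Its clearest feature was the set. All 12 libraries of set E, between 63.9 and 128 TPM with a median of 79.0, lay above all 36 libraries of sets D, F and G, which ran from 22.8 to 61.4 TPM with a median of 42.95. Of 15378 genes, 349 (2.27%) were higher in set E without overlap. Within set E the strains did not separate: means were 78.0 ± 6.29 TPM in F1KO and 72.5 ± 10.4 TPM in F1het at 300 mM, and 82.2 ± 10.4 TPM in F1KO and 93.7 ± 30.0 TPM in F1het at 50 mM (SD, n = 3 each). osm-11 went the other way, at 96.0 to 198 TPM in set E, against 78.2 to 473 TPM in the others, where only libraries at 300 mM of sets F and G reached below 200.

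Markers differed between the sets as well. The 5 hypodermal markers summed to between 81.6 and 217 TPM in set E and to between 316 and 1538 TPM in the other sets. A sum follows its most abundant genes, so it does not show that every hypodermal gene was lower in set E. The cuticle genes dpy-2, dpy-3, dpy-7 and dpy-10 passed the filter on low values in set E. None of them passed it in the separate fits of sets D, F and G, whereas dpy-9 of the same list was tested in set D. The filter result does not make these genes particular to set E. Their group means at 300 mM were 3.14 to 5.88 TPM in N2 and 2.04 to 4.57 TPM in gcp100, where libraries that stood apart are included. Group means in set E were 0.37 to 6.18 TPM. The 3 excretory cell markers summed to between 298 and 463 TPM in set E and to between 353 and 1034 TPM in the other sets, with overlap. Set, strain background and whatever differed between the experiments cannot be told apart for these levels.

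**Figure D3:**
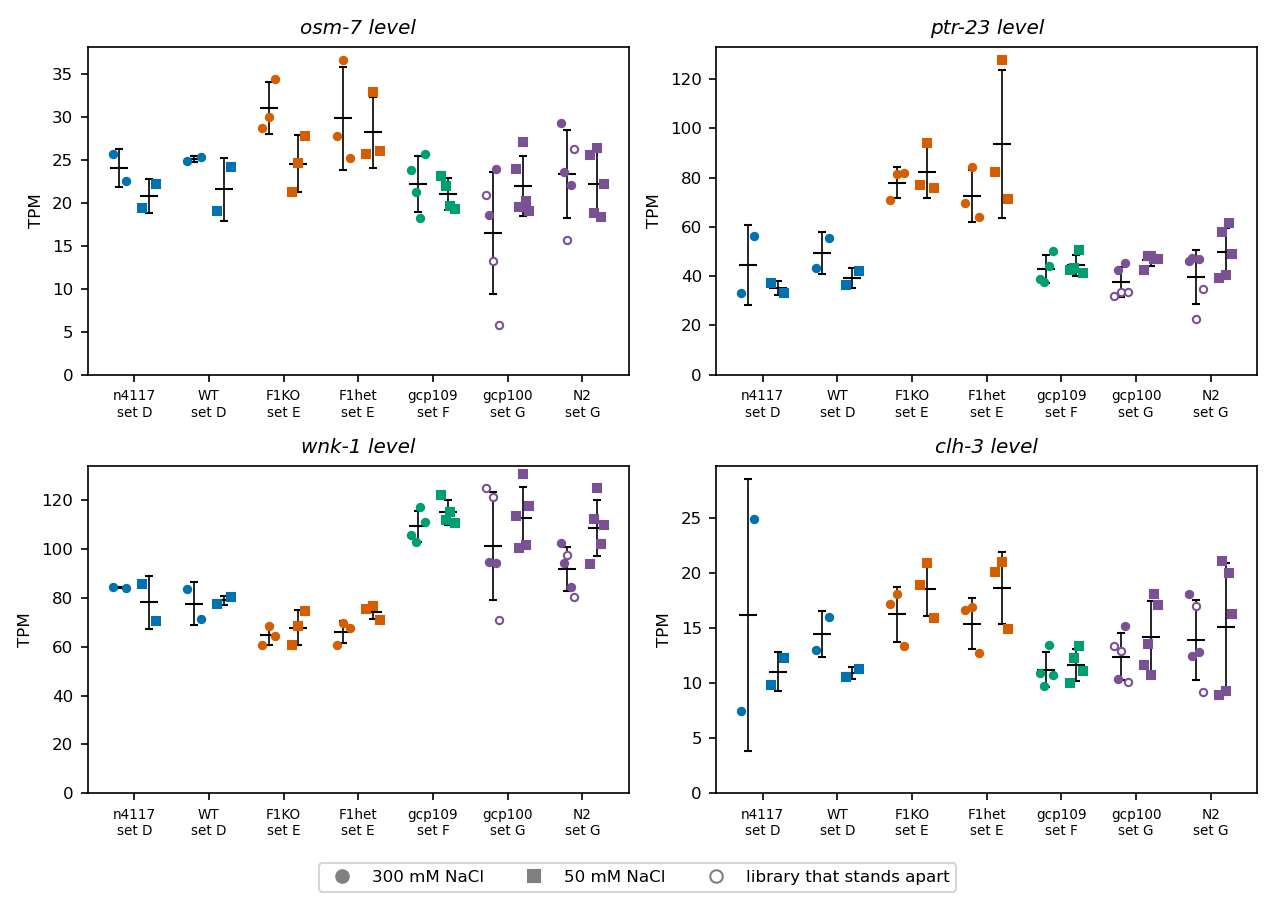
Levels of osm-7, ptr-23, wnk-1 and clh-3 in TPM in each library, by strain and set, with 300 mM NaCl (circles) left of 50 mM (squares), the mean and SD in black and open symbols for the 5 set G libraries that stand apart. ptr-23 lies between 63.9 and 128 TPM in set E and below 61.5 TPM elsewhere, while wnk-1 is lower in sets D and E (60.6 to 85.8 TPM) than in most libraries of sets F and G (71.0 to 131 TPM).

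wnk-1, the WNK kinase gene, had the narrowest differences between salt levels, with log2 values between -0.24 and 0.11 and adjusted p of at least 0.336 by limma. In gcp109 it stood at 106, 103, 117 and 111 TPM at 300 mM, against 122, 112, 115 and 111 TPM at 50 mM, and its interval of -0.28 to 0.13 was the tightest of the 5 genes in sets F and G. In F1het larvae it stood at 60.8, 69.8 and 67.5 TPM at 300 mM against 75.4, 76.6 and 70.9 TPM at 50 mM. These groups did not overlap, as was so for 7.93% of all genes in that direction, and the log2 difference was -0.17 (95% interval -0.39 to 0.05).

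clh-3, the gene of the CLC chloride channel, had log2 differences between -0.26 and 0.37 and adjusted p of at least 0.598 by limma. In gcp109 it stood at 10.97, 9.74, 13.5 and 10.8 TPM at 300 mM, against 10.0, 12.3, 13.4 and 11.1 TPM at 50 mM, and the groups overlapped. In N2 at 50 mM its libraries spread from 8.96 to 21.1 TPM, against 7.47 to 24.9 TPM over all 48 libraries, so small differences were not detectable there. Like ptr-23, clh-3 was higher in set E (12.7 to 21.1 TPM, median 17.1) than in the other sets (7.47 to 24.9 TPM, median 12.4), but with overlap.

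**Figure D4:**
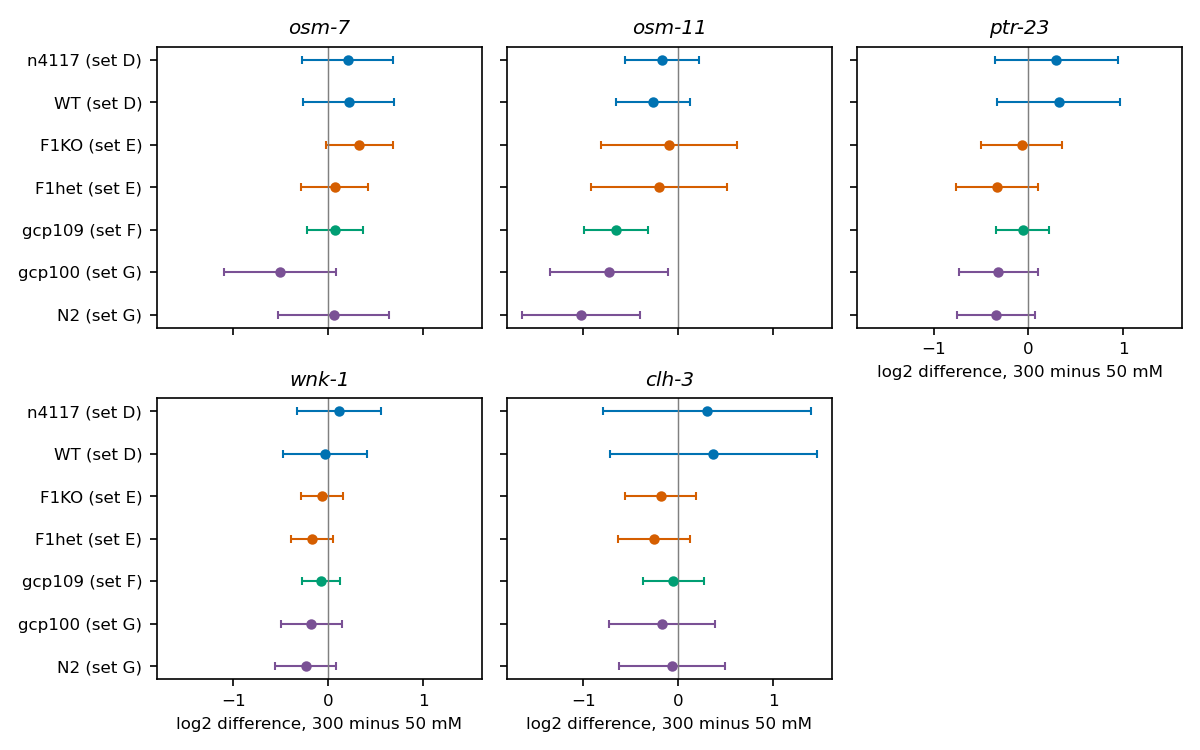
log2 difference of log2(TPM + 1), 300 minus 50 mM NaCl, for the 5 tested genes in 7 pairs of groups, with 95% intervals from limma. Colours mark the set, and WT and N2 are the same strain in different sets. The intervals of osm-11 in gcp109 (-0.99 to -0.32), gcp100 (-1.35 to -0.11) and N2 (-1.65 to -0.41) lie below 0, unadjusted for the number of genes tested.

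osm-8 and osr-1 were too low to test. osm-8 was between 0 and 0.77 TPM in set E, 0 and 0.15 TPM in set D, and 0 and 0.08 TPM in set F. In set G it was at most 0.12 TPM in 19 libraries and 3.99 TPM in replicate 3 of N2 at 300 mM. osr-1 ran from 0.10 to 1.23 TPM in set E, 0.04 to 0.40 TPM in set D and 0.09 to 0.35 TPM in set F, and its highest value, 2.58 TPM, came from that same set G library. Replicate 1 of gcp100 at 300 mM, with a higher adult marker sum (10288 against 8478 TPM) but fewer sperm transcripts (1502 against 4740 TPM), listed both genes at 0. At such levels the pair gives no order of conditions.

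**Figure D5:**
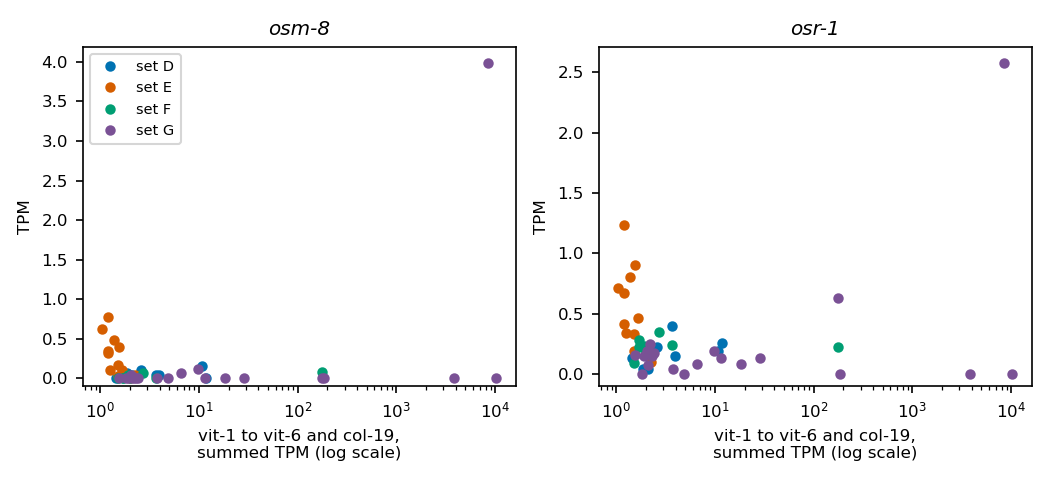
Levels of osm-8 and osr-1 in TPM against the summed TPM of vit-1 to vit-6 and col-19 (log scale) in the 48 libraries, coloured by set. A single set G library holds the highest values, 3.99 and 2.58 TPM, and 2 others with adult marker sums of 3820 and 10288 TPM list both genes at 0.

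Strains were compared at each salt level with the wild type or heterozygote of their set. gcp109, alone in set F, was compared with N2 of set G. These contrasts ask about mir-85 and its site in hrg-1. None of the 5 tested genes passed in any of 8 such comparisons by limma, the smallest adjusted p was 0.331 and none had an unadjusted p under 0.05. Among all genes 0.02% and 0.0134% passed for n4117 against WT at 300 and 50 mM, 0.0194% at either level for F1KO against F1het, 0% at either level for gcp100 against N2 (with 880 and 51 genes at an unadjusted p under 0.05), and 1.45% and 0.0122% for gcp109 against N2. The largest difference was that of osm-7 in gcp100 against N2 at 300 mM, -0.58 on the log2 scale (95% interval -1.17 to 0.01), which includes the low libraries named above. For osm-11 at 50 mM, gcp100 against N2 gave -0.01 (-0.63 to 0.62) and gcp109 against N2 0.11 (-0.48 to 0.69). Each fit shares 1 spread per gene over both salt levels, so the uneven 300 mM libraries of set G enter these intervals. For gcp100 against N2 at 50 mM only 51 of 15275 genes had an unadjusted p under 0.05, so that a count of 0 says little. gcp109 and N2 belong to different sets, so genotype and set cannot be told apart there. Of the pathway genes, mop-25.1 (0.63, SE 0.16) and ptr-14 (0.83, SE 0.17) were higher past the threshold in gcp109 than in N2 at 300 mM. The mop-25.1 call was lost with rescaling, without a variance trend, with the replicate block and without the 5 libraries that stood apart, and it passed in 21 of 28 fits that left out 1 library; ptr-14 passed under each of these settings and in 26 of the 28.

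The salt responses themselves were also compared between strains. None of the 5 genes passed in any of 4 such tests of the difference by limma, none had an unadjusted p under 0.05, and 0% of all genes passed (174 had an unadjusted p under 0.05 for n4117 against WT, 369 for F1KO against F1het, 187 for gcp100 against N2 and 519 for gcp109 against N2). For osm-11 the response of gcp109 minus that of N2 was 0.37 (95% interval -0.454 to 1.2002), that of F1KO minus F1het was 0.10 (-0.91 to 1.12) and that of n4117 minus WT was 0.10 (-0.46 to 0.65). The estimates of osm-11 were farther below 0 in sets F and G than in sets D and E, and this was not tested as a difference between sets.

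The routes that these genes act on were followed in 6 lists. Of the 5 osmolyte genes all were tested in each strain, and the rises that passed were in gcp109. hmit-1.1 is a myo-inositol transporter gene that salt is known to induce. It stood at 65.2, 67.6, 73.2 and 114 TPM at 300 mM in gcp109, against 24.2, 27.8, 26.6 and 27.1 TPM at 50 mM. Its groups did not overlap, as was so for 5.28% of all genes in that direction. Its log2 difference was 1.53 (SE 0.18, adjusted p = 0.00594 by limma), and its relative hmit-1.2 rose by 0.97 (SE 0.16, adjusted p = 0.0277). hmit-1.1 passed in all 8 fits that left out 1 library, and hmit-1.2 in 2 of the 8, those without replicate 1 or 4 at 50 mM (adjusted p up to 0.111 by limma). The median over the 5 genes was 0.72. hmit-1.1 was also called in N2 without the 5 libraries that stood apart, at 1.46 (adjusted p = 0.00973 by limma), against 0.60 with all libraries (adjusted p = 0.480 by limma). In set E its values ran the other way and were low: 0.40 to 0.84 TPM at 300 mM against 1.14 to 3.56 TPM at 50 mM in F1het, a log2 difference of -1.02 that did not pass (adjusted p = 0.267 by limma).

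gpdh-1, the glycerol synthesis gene that loss of osm-7, osm-8 or osm-11 is known to raise, did not pass in any strain. In gcp109 gpdh-1 stood at 4.96, 4.59, 4.20 and 9.72 TPM at 300 mM against 2.77, 3.14, 2.98 and 3.03 TPM at 50 mM. Those groups did not overlap, every 300 mM library being the higher, as was so for 5.28% of all genes. The log2 difference of gpdh-1 was 0.72 (SE 0.23, adjusted p = 0.189 by limma). In N2 it was -0.36 (adjusted p = 0.659 by limma), with 1 library at 300 mM listed at 0.

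Of 18 Notch pathway genes, 13 to 15 were tested per strain and none passed, with medians between -0.06 and 0.30. Of 12 genes of chloride transport, which hold the other CLC channels and the cation chloride cotransporters that WNK kinases regulate, 1 fell in N2: mop-25.1, a homologue of MO25, by 0.63 on the log2 scale (SE 0.15). Of 5 genes of the p38 and CaMKII route, which OSR-1 acts upstream of, 1 fell in N2: nsy-1, a MAP kinase kinase kinase, by 0.76 (SE 0.21). Of 27 Patched-related genes, 17 were tested in gcp109 and 20 in N2. Among them ptr-20 rose in gcp109 (1.18, SE 0.17) and ptr-24 fell in N2 (by 0.72, SE 0.19). These single calls stand beside a background of 1.35% of genes in gcp109 and 4.3% in N2. In fits that left out 1 library, ptr-20 passed in 5 of 8, mop-25.1 in 14 of 20, and nsy-1 and ptr-24 in 7 of 20 each. Without a variance trend none of the N2 calls held. The nsy-1 call was also lost without the filter and without the 5 libraries that stood apart. Of 6 furrow collagens, cuticle genes whose mutation also turns on the osmotic response, 5 were tested in set E and none passed, with medians of -0.83 in F1KO and -1.099 in F1het. In set E the replicate number pairs the 300 and 50 mM libraries within F1KO and within F1het, but not F1KO with F1het. With it as a block, dpy-10 (-1.62, adjusted p = 0.0337 by limma), dpy-3 (-1.48, adjusted p = 0.0427 by limma) and the Patched-related ptr-14 (-1.18, adjusted p = 0.0424 by limma) passed in F1het. In that fit 1.1% of all genes passed, against 0.00647% without the block. The balancer of F1het carries a dpy-10 allele at both salt levels, and its part in these values was not tested.

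Genes whose values deviated from their set's mean most like those of a member were listed over the 48 libraries, among 13300 genes tested in all fits. For osm-11 these were ZK632.4 (Pearson r = 0.853), bed-1 (0.812) and pho-5 (0.791), and for osm-7 they were C44C1.5 (0.849), crp-1 (0.814) and F25E5.16 (0.797). ptr-23 went with lin-25 (0.846), F07H5.5 (0.842) and nhr-97 (0.841), and clh-3 with hum-2 (0.831), ipla-1 (0.826) and nid-1 (0.751). wnk-1 went with rabx-5 (0.767), F21F3.6 (0.765) and acl-1 (0.759). Among the members themselves r was highest between osm-11 and wnk-1 (0.569) and between ptr-23 and clh-3 (0.532). osm-7 and osm-11 stood at r = 0.172. The libraries share their sets and their composition, so these values only describe them.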

How the data were processed

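The authors deposited 1 table of TPM for the whole series; per the submitters' processing notes, genome builds ce11 and WBcel235 and bedtools were used, while no source used here gives the aligner, counter or annotation. Per the labels' protocols, RNA above 200 nucleotides was treated with DNase, depleted of ribosomal RNA and made into strand-specific libraries. TPM sums were 953862 to 999109 per library; TPM keep no depth, so depth is unknown and the spread between libraries sets the precision. Of 68 samples, 48 were used; the other 20 are not analysed here. Of the 8 genes chosen, 1 is not reported here. Set G values stood beside displaced names in 20693 of 30467 lines; moved back, they correlated with the other libraries across genes at 0.988, against 0.592 as deposited.

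From the deposited TPM, log2(TPM + 1) was computed and tested with limma 3.58.1 in R 4.3.3 (variance trend, 1 fit per set and 1 over sets F and G, two-sided, Benjamini-Hochberg over all genes, threshold 0.05), after tests on simulated data. The pseudocount of 1 understates changes of low genes. A gene was tested if it had 1 TPM or more in a number of libraries equal to the smallest group. The members and lists were chosen with earlier results of these data known. Pathway genes are named where they passed (at most 4 per list), beside gpdh-1 and hmit-1.1, as are the 3 genes most like each member. Replicate numbers were taken to pair libraries where every same-numbered pair deviated together at r above 0.1: r was 0.493 to 0.547 in gcp109, 0.202 to 0.282 in F1KO, 0.114 to 0.193 in F1het, and 0.291 to 0.594 between gcp100 and N2 at 50 mM. Alternatives were a pseudocount of 0.1, no filter, rescaling, no variance trend, the replicate block, each library left out and, chosen after seeing the data, 5 libraries of set G left out.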

Additional observations from a re-analysis of the deposited data

Results flagged for a closer look

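Among 90 combinations of a group of 4 or 5 libraries and a gene, 13 held 1 library far from the others by Dixon's test; chance alone flags about 1 in 20. Of the 7 regulators, osm-11 in gcp100 at 300 mM was flagged for its highest library, replicate 1 with 433 TPM, which also had the highest adult marker sum. ptr-23 was flagged in gcp100 at 50 mM for its lowest library (42.4 TPM), in a group that otherwise spans less than 2 TPM. The highest libraries of osm-8 were flagged in N2 at 300 mM (3.99 TPM), N2 at 50 mM (0.12 TPM) and gcp100 at 50 mM (0.04 TPM). Those of osr-1 were flagged in gcp109 (0.35 TPM), gcp100 (0.15 TPM) and N2 (2.58 TPM) at 300 mM. Except for 3.99 and 2.58 TPM these are single low values beside 0 or near it. Of the pathway genes, the highest libraries were flagged in gcp109 at 300 mM for gpdh-1 (9.72 TPM) and hmit-1.1 (114 TPM), both in replicate 4, and for ptr-24 (58.1 TPM), in gcp109 at 50 mM for ptr-20 (2.05 TPM), and in N2 at 300 mM for ptr-20 (10.95 TPM, replicate 3).

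Some genes were higher at 300 mM in every library of 1 strain and lower in every library of another. These differences between strains of different sets were not tested. Among all genes, 33.9% were higher and 11.5% lower without overlap in n4117, and 27.7% and 13.6% in WT. The shares were 11.5% and 8.43% in F1KO, 6.05% and 7.93% in F1het, and 5.28% and 4.18% in gcp109. In gcp100 they were 2.08% and 2.52%, and in N2 4.96% and 4.87%. hmit-1.1 differed by 0.66 on the log2 scale in n4117, 1.05 in WT and 1.53 in gcp109, and by -0.78 in F1KO and -1.02 in F1het. nsy-1 differed by 0.17 in n4117, and by -0.31 in WT and -0.76 in N2. ptr-14 differed by 0.23 in gcp109, and by -0.15 in n4117, -0.36 in WT, -0.70 in F1KO, -1.18 in F1het and -0.56 in gcp100. ptr-24 differed by 0.24 in n4117 and by -0.72 in N2. For nsy-1, the pair n4117 and WT lies within set D, where the interaction of no gene passed by limma (174 genes had an unadjusted p under 0.05).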

How the results depend on the processing

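The count of regulators that passed was 0 in each comparison, and osm-11 raised it to 1 under some settings: in gcp109 with the replicate block (12.5% of all genes passed), and in N2 with rescaling (adjusted p = 0.0374 by limma; 5.08% of all genes), with the replicate block (adjusted p = 0.0225 by limma; 7.55% of all genes; the numbers do not pair the 300 and 50 mM libraries of N2) and without the 5 libraries (7.27% of all genes). Leaving out single libraries gave 0 to 1 in both strains. For N2 the fits that passed lacked replicate 3 (adjusted p = 0.0250 by limma) or 4 (0.0329) of N2 at 300 mM or replicate 1 of gcp100 at 300 mM (0.0269), over a range of 0.0250 to 0.147, and 3.01%, 8.87% and 6.41% of all genes passed in those fits. Its log2 difference was negative in every N2, gcp100 and gcp109 fit run. The replicate block changed no other regulator's call. The count of pathway genes that passed was 3 in F1het with the replicate block (0 without), and in N2 (3) it was 0 without a variance trend, 5 with the block and 5 without the 5 libraries; single libraries left out gave 0 to 1 in F1het and gcp100, 1 to 3 in gcp109 and 0 to 5 in N2. The cause was not tested.

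Differences near 0 changed sign: with rescaling, wnk-1 in n4117 was -0.082 (0.11 otherwise), and without the 5 libraries clh-3 in N2 was 0.0045 (-0.06 otherwise). With single libraries left out the log2 differences ran in WT from -0.14 to 0.086 for wnk-1; in n4117 from -0.077 to 0.67 for ptr-23, -0.028 to 0.25 for wnk-1 and -0.50 to 1.11 for clh-3; in F1het from -0.082 to 0.18 for osm-7 and -0.40 to 0.061 for osm-11; in F1KO from -0.43 to 0.17 for osm-11, -0.13 to 0.030 for ptr-23 and -0.14 to 0.0047 for wnk-1; in gcp109 from -0.14 to 0.0037 for ptr-23 and -0.14 to 0.0097 for clh-3; and in N2 from -0.029 to 0.19 for osm-7 and -0.22 to 0.071 for clh-3. Rescaling moved the median of all genes in n4117 to 0.00 (0.16 otherwise), so the positive medians of set D are relative to that shift. With 2 libraries per group, of which the fits without 1 kept a single library assumed to vary like the other groups, set D could show only large differences.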
